A study of Mus musculus with 12 samples.

Results

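The rows of the count table followed here were those of Fos, Fosb, Jun, Junb, Egr1, Ier2, Nr4a1, Btg2, Atf3 and Socs3. They are 10 genes of the 31053 gene symbols in the table, and all 10 were found. The genes were selected on measured values, since they had led groups of postnatal astroglia-like cells in an earlier analysis of the same counts. Their levels by age and by class of cell are therefore given as a description, with no test.

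The cells came from the striatum of wild type mice, whose strain is mixed in the labels and C57BL/6Jax in the methods of the study, and had been sorted on magnetic beads for ACSA2, an antigen on the surface of astrocytes. The 2 groups were postnatal mice and mice aged 3 months (3m), each with 2 libraries made with a droplet-based single-cell kit that reads the 3' end of the RNA. The labels conflicted on the postnatal day of both postnatal libraries, as replicate 1 had day 7 in its title and day 3 in its age tag and replicate 2 had the reverse, so these formed 1 group. For the single-cell libraries the text of the study speaks only of day 3, which does not settle these labels. Per the methods of the study, the subventricular zone was left out, 2 to 5 animals were pooled for each preparation and the tissue was digested enzymatically before sorting, so the levels are those of cells that had passed through this preparation.

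The unit is the unique molecular identifier (UMI), a tag that marks 1 captured RNA molecule. A level in CPM is the number of UMIs of a gene per 1000000 UMIs of the cells that were summed. Each cell was placed in a class by its marker genes, and the class is called "-like" because it rests on markers alone. The libraries held between 651 and 1449 barcodes and between 7185335 and 11501049 UMIs. Astroglia-like cells numbered 393 and 566 in postnatal replicates 1 and 2, and 314 and 299 in 3m replicates 1 and 2. Their median depth was 9261, 12235, 6035 and 8457 UMIs in the same order. The bead enrichment had left other cells, above all 579 and 295 oligodendrocyte-like cells in the 3m libraries.

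Postnatal replicate 2 and 3m replicate 2 shared 95 cell barcodes, whereas every other pair of libraries shared at most 2. In each shared pair the smaller cell held a median of 1.76% of the UMIs of the larger one, and the smaller cells were left out. Of these, 82 lay in 3m replicate 2, and 6 of them would have been astroglia-like. Their inclusion moved the summed level of the 10 genes in the astroglia-like cells of that library from 137.4 to 148.2 CPM.

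Immediate early genes are transcribed within minutes of a stimulus, without new protein synthesis, from factors such as SRF, CREB and STAT proteins that are already present in the cell. Many encode transcription factors. Fos and Fosb pair with Jun and Junb to form the AP-1 factor, whereas Egr1 is a zinc finger factor and Nr4a1 an orphan nuclear receptor. Socs3 differs in its role, as it is an inhibitor of JAK kinase signalling that is itself a target of STAT3.

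All 10 genes were far more abundant in postnatal than in 3m astroglia-like cells. Their summed level was 5528 and 4220.0 CPM in the postnatal libraries, replicate 1 first, and 409.5 and 137.4 CPM in the 3m libraries. The group means were 4874 ± 925 CPM and 273 ± 192 CPM (SD, n = 2 libraries each), a ratio of 17.8. The lowest ratio of any postnatal to any 3m library was 10.3 and the highest 40.2. As a log2 ratio of 3m over postnatal the difference was -4.16, and leaving out 3m replicate 1 or 2 gave -5.15 or -3.57. Both 3m libraries lay below both postnatal libraries for 10 of the 10 genes, which was also true of 49.5% of the 11846 genes that passed the filter on low counts. The 10 genes had been chosen on this contrast, so nothing is read from that count. All of them passed the filter, though Fosb, Nr4a1, Atf3 and Socs3 did so through their postnatal counts alone.

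Fos, the best known of the group, was the most abundant member postnatally, with 2362 CPM in replicate 1 and 1564 in replicate 2. Among all genes in the table these levels ranked 23 and 81. At 3m it stood at 75.2 and 6.89 CPM, and at ranks of 1982 and 9274. The level of Fos thus differed by over an order of magnitude between the 3m libraries. The ratio of the group means was 47.8, and the log2 ratio of 3m over postnatal moved from -5.58 to -8.15 without 3m replicate 1.

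Fosb was much rarer, at 44.3 and 77.0 CPM postnatally. It stood at 18.4 CPM in 3m replicate 1, and no UMI was found among the 2612816 UMIs of 3m replicate 2, which allows up to 1.15 CPM. It was the member whose lowest postnatal value came nearest to a 3m value as a ratio.

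Jun was the member that remained abundant at 3m. It was measured at 1012 and 1238 CPM postnatally and at 161 and 108 CPM at 3m, a ratio of group means of 8.37. The 3m libraries were close to each other for this gene. Jun accordingly made up 18.3% and 29.3% of the UMIs of the 10 genes in the postnatal libraries, but 39.3% and 78.6% at 3m.

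Its relative Junb was measured at 592 and 209 CPM postnatally and at 12.4 and 3.83 CPM at 3m. The postnatal libraries differed more for Junb than for any other member, relative to the mean, as their SD of 271 CPM stood beside a mean of 401 CPM.

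Egr1 was the most even of the abundant members between the postnatal libraries, with 524 and 486 CPM. It had 39.7 and 3.44 CPM at 3m. Nr4a1 had 98.0 and 38.0 CPM postnatally and 8.97 and 0.765 CPM at 3m, the last from 2 UMIs.

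Ier2 and Btg2 followed the same order. Ier2, a small nuclear protein, was measured at 318 and 254 CPM postnatally and at 32.0 and 4.98 CPM at 3m. Btg2, an antiproliferative cofactor of mRNA deadenylation, was measured at 310.2 and 187 CPM postnatally and at 59.8 and 9.19 CPM at 3m. Btg2 had the lowest single ratio between a postnatal and a 3m library among the members with UMIs in all 4 libraries, 3.12.

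Atf3, a stress-induced factor of the ATF/CREB family, was close to the limit of detection, with 34 UMIs (8.23 CPM) and 59 UMIs (6.82 CPM) in the postnatal libraries. No UMI was found in either 3m library. Taking 3 UMIs over both 3m libraries as the floor, 0.605 CPM, the postnatal mean was at least 12.4-fold higher.

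Socs3 had 259 and 160.4 CPM postnatally, from 1069 and 1388 UMIs. At 3m only 5 and 1 UMIs were found, which is 2.14 and 0.383 CPM. The ratio of the group means was 166, the highest of the 9 members that were detected in both groups, though it rests on 6 UMIs at 3m. Single pairs of libraries gave ratios from 75.1 to 676, and the log2 ratio of 3m over postnatal moved from -7.38 to -6.62 without 3m replicate 2.

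The size of the ratio depended on single libraries for other members too. Without 3m replicate 1 the log2 ratio of 3m over postnatal moved from -5.63 to -6.71 for Junb, from -4.55 to -7.20 for Egr1, from -3.95 to -5.85 for Ier2 and from -2.85 to -4.76 for Btg2. For Jun it moved less, from -3.06 to -3.38. Without 3m replicate 2 the values were nearer to 0, at -4.71 for Fos, -5.02 for Junb, -3.67 for Egr1, -3.16 for Ier2 and -2.06 for Btg2, with a move from -2.72 to -1.72 for Fosb and from -3.81 to -2.92 for Nr4a1. Without postnatal replicate 1 it moved from -5.63 to -4.69 for Junb and from -3.81 to -2.97 for Nr4a1.

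**Figure D1:**
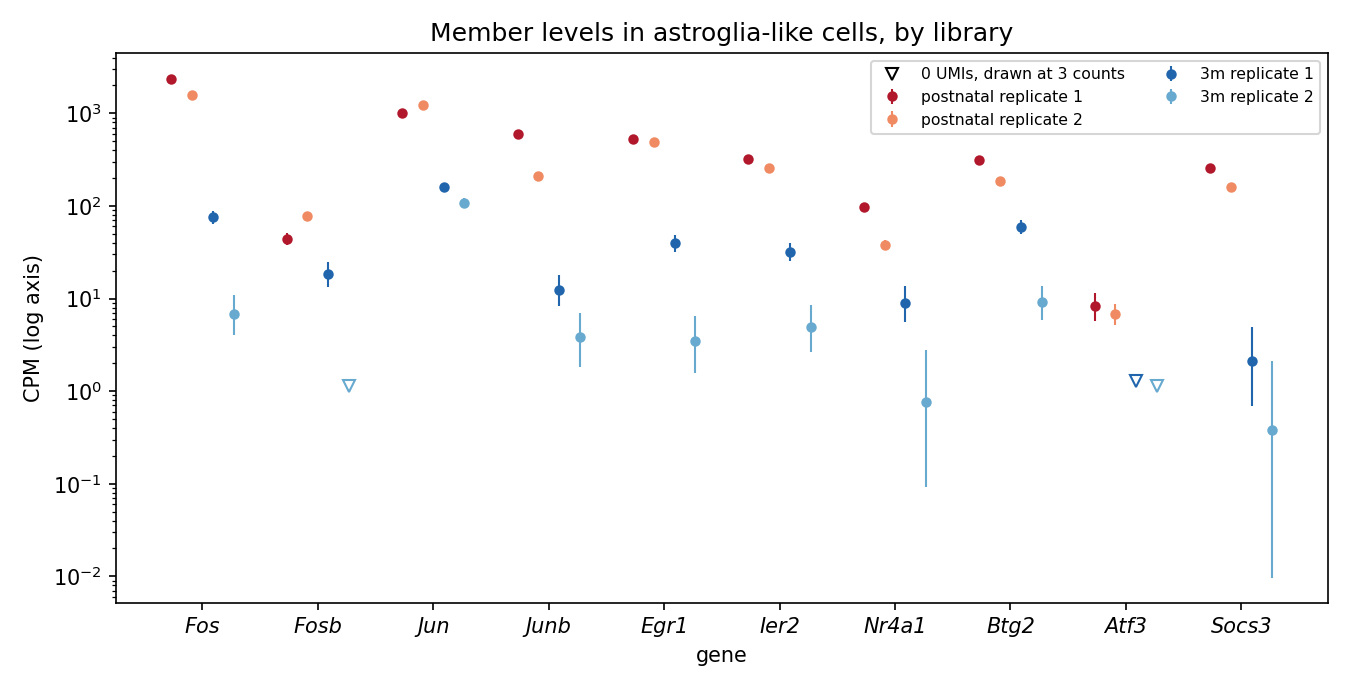
Levels of the 10 genes in astroglia-like cells of each library, in CPM on a log axis, with 95% exact Poisson intervals that cover counting error only and open triangles where no UMI was found. Both 3m libraries sit below both postnatal libraries for every gene, and Jun is the highest of the 10 in both 3m libraries, with 161 and 108 CPM.

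The level of 3m replicate 1 rested on very few cells. Of its 959 UMIs of the 10 genes, 690 lay in 5 of the 314 cells, and 2 cells held 583. These 5 cells were at the same time the only astroglia-like cells of the library with at least 3 UMIs of cycling genes. They held 9314 to 19248 UMIs, and 6 to 9 of the 12 astroglia markers were detected in each. Their astroglia marker score, the mean log-normalised level of the markers, lay between 0.480 and 1.14, against a median of 2.62 over all astroglia-like cells of that library.

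When cells with any UMI of a cycling gene were left out, the summed levels were 5663 and 3780.3 CPM postnatally and 117 and 130 CPM at 3m. The 3m libraries were then alike. Fos was found at 3.20 CPM (7 UMIs) and 6.64 CPM (16 UMIs) in the 3m libraries, Egr1 at 1 and 0 UMIs, and Socs3 at 1 and 0 UMIs. Jun made up most of what remained, with 194 of 257 UMIs in 3m replicate 1 and 256 of 312 in 3m replicate 2. The gap between the 3m libraries was thus smaller in cells without cycling UMIs, and for Btg2 it narrowed from 59.8 and 9.19 CPM to 15.1 and 7.47 CPM.

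The per-cell share, which is the percentage of a cell's UMIs that came from the 10 genes, showed how evenly the transcripts were spread. The median share was 0.189% and 0.239% in the postnatal libraries, and 0.00456% and 0.00671% in the 3m libraries. The share at the 90th percentile was 1.22% and 0.872% postnatally, and 0.0353% and 0.0367% at 3m. Cells without a single UMI of the 10 genes made up 16.5% and 3.71% of the postnatal astroglia-like cells and 49.4% and 48.5% of those at 3m. Even so, the tenth of postnatal cells with the most UMIs of these genes held 46.0% and 45.7% of them. Postnatal cells therefore ranged from shares of 0 to 2.96% and 3.29%.

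**Figure D2:**
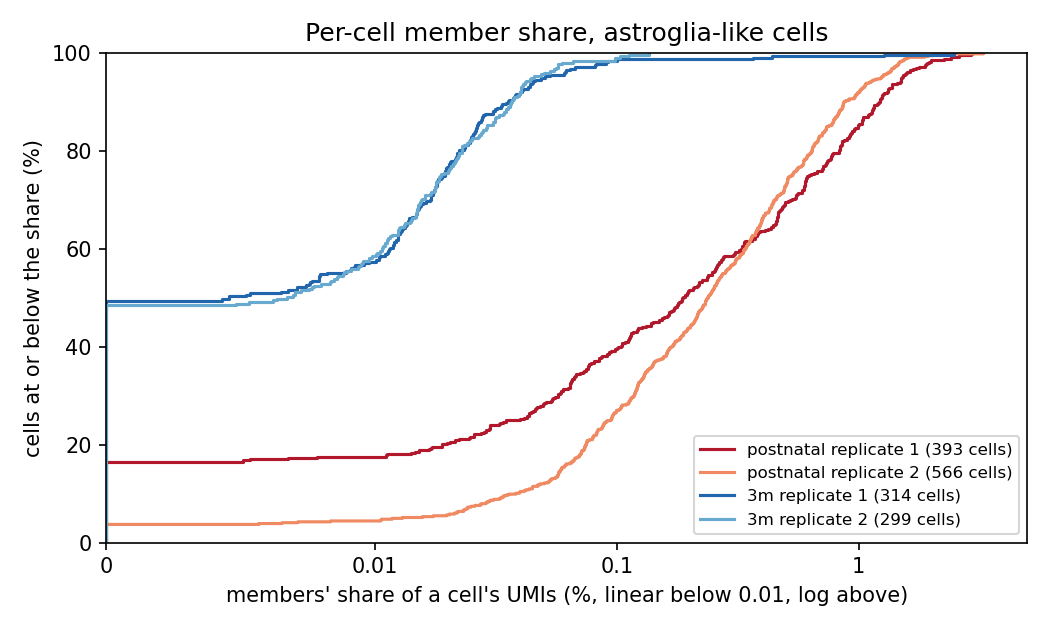
Cumulative percentage of astroglia-like cells (vertical) at or below a given share of UMIs from the 10 genes (horizontal, linear below 0.01% and logarithmic above) in each library. The curves of the 3m libraries nearly coincide apart from the few cells of 3m replicate 1 above 0.1%, and the postnatal curves are shifted to the right with medians of 0.189% and 0.239%.

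Deeper cells show more genes, so each cell was also thinned to 2000 UMIs, and cells with fewer were left out (69 and 45 postnatal cells, and 32 and 38 cells at 3m). At this depth 65.1% (95% exact binomial interval 59.7 to 70.3) and 69.3% (65.1 to 73.2) of the postnatal astroglia-like cells held at least 3 UMIs of the 10 genes. In the 3m libraries these were 6 of 282 cells, 2.13% (0.785 to 4.57), and 2 of 261 cells, 0.766% (0.0929 to 2.74). The group means were 67.2 ± 2.95% and 1.45 ± 0.963% (SD, n = 2). With at least 1 UMI as the bar, the shares were 83.6% and 89.4% postnatally and 20.9% and 21.1% at 3m. The unthinned shares of cells with at least 1 UMI were 83.5%, 96.3%, 50.6% and 51.5% in the same order.

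Among the single genes at 2000 UMIs, Fos was found in 66.0% and 67.2% of postnatal and in 2.13% and 1.92% of 3m astroglia-like cells. Jun was found in 62.7% and 75.4% and in 16.0% and 17.6%. Egr1 was found in 41.0% and 31.7% of postnatal cells, and in 1.42% and 0% of 3m cells, where 0 of 261 cells allows up to 1.15%. Socs3 was found in 23.5% and 14.0% of postnatal cells and in 0.355% and 0% of 3m cells. Other classes of the postnatal libraries also held these UMIs. At the same depth Fos was found in 4 of 20 and 9 of 30 mural-like cells, and in 5 of 7 and 4 of 8 erythroid-like cells, a class with very deep barcodes that rests on 5 markers. The shares in astroglia-like cells did not exceed those of the erythroid-like cells beyond counting error, so a cell with a UMI is not read here as a cell that expresses the gene. Oligodendrocyte-like cells of the 3m libraries, with median depths of 9062 and 13308 UMIs, held a Fos UMI in 0.175% and 0% of cells and a Jun UMI in 24.7% and 27.1% at 2000 UMIs. The level of Jun in 3m replicate 1 was 161 CPM in astroglia-like and 144 CPM in oligodendrocyte-like cells. In 3m replicate 2 the order was the opposite, at 108 and 178 CPM. The difference between the classes was not tested.

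Depth and RNA quality moved with the share within some libraries. Across astroglia-like cells, the Spearman rank correlation between the share and the UMIs of the cell was 0.53 and 0.22 in the postnatal libraries (393 and 566 cells) and 0.27 and 0.30 in the 3m libraries (314 and 299 cells). After thinning, it was 0.32, 0.16, -0.01 and 0.03. In postnatal replicate 1 the cells below the median depth had a summed level of 4038 CPM and those at or above it 5878 CPM. The rank correlation with the mitochondrial share was -0.41, 0.16, -0.19 and -0.08 in the 4 libraries, whose median mitochondrial share was 2.60%, 2.01%, 4.63% and 5.86%. These cells share library, depth and preparation, and the part of either measure in the age difference was not tested.

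The postnatal astroglia-like cells with at least 3 UMIs of cycling genes did not stand on 1 side of the other cells. In postnatal replicate 1, 30 such cells had a summed level of 3572 CPM against 5663 CPM in 292 cells without a cycling UMI. In postnatal replicate 2, 77 such cells had 4656 CPM against 3780.3 CPM in 361 cells. The order was opposite in the 2 libraries.

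Markers of other cell types were also found in the astroglia-like sums, and their part in the age difference was not tested. Oligodendrocyte markers (10 genes) gave 257 and 123 CPM postnatally and 938 and 508 CPM at 3m, which is above the summed level of the 10 members at 3m. Microglia markers (10 genes) gave 23.5 and 40.5 CPM postnatally and 90.1 and 70.0 CPM at 3m, and mural markers (9 genes) 118 and 119 CPM and 335 and 126 CPM. These 3 lists were higher at 3m in both libraries. Lists that were higher postnatally were ependymal (61.7 and 60.5 against 5.98 and 7.27 CPM), endothelial (22.02 and 19.2 against 9.82 and 10.7 CPM), oligodendrocyte precursor (75.3 and 89.7 against 61.5 and 55.1 CPM) and neuron markers (56.6 and 135 against 55.1 and 43.2 CPM). Cycling genes also moved with age, at 541 and 1269 CPM postnatally and 33.3 and 235 CPM at 3m. The 12 astroglia markers gave 12035 and 8133 CPM postnatally and 23436 and 24593 CPM at 3m. Erythroid markers gave 20.3 and 7.63 CPM and 8.97 and 5.74 CPM.

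The 10 genes had been chosen because they led groups of these same postnatal cells, so the choice itself favours genes that vary together from cell to cell, and the correlations below describe the set without being a finding about it. Over the 45 pairs of members, in cells thinned to 2000 UMIs, the median Pearson r of log counts was 0.30 in postnatal replicate 1 (324 cells) and 0.19 in postnatal replicate 2 (521 cells). Fos had the highest median r with its partners, 0.48 and 0.34. The highest pairs were Fos with Junb in replicate 1 (r = 0.64) and Fos with Egr1 in replicate 2 (r = 0.55). Socs3, chosen in the same way, had r = 0.50 and 0.45 to Junb and 0.53 and 0.34 to Fos. Atf3 and Fosb were the most loosely tied, with median r of 0.13 and 0.07 for Atf3 and 0.18 and 0.11 for Fosb, and Atf3 was found in under 1% of thinned cells. All cells of 1 library share a preparation, and thinning does not remove differences in depth before thinning, so these values are descriptions. At 3m the median r was 0.56 over the 36 pairs with UMIs in replicate 1, where 5 cells held 690 of the 959 UMIs before thinning, and -0.01 over 15 pairs in replicate 2.

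**Figure D3:**
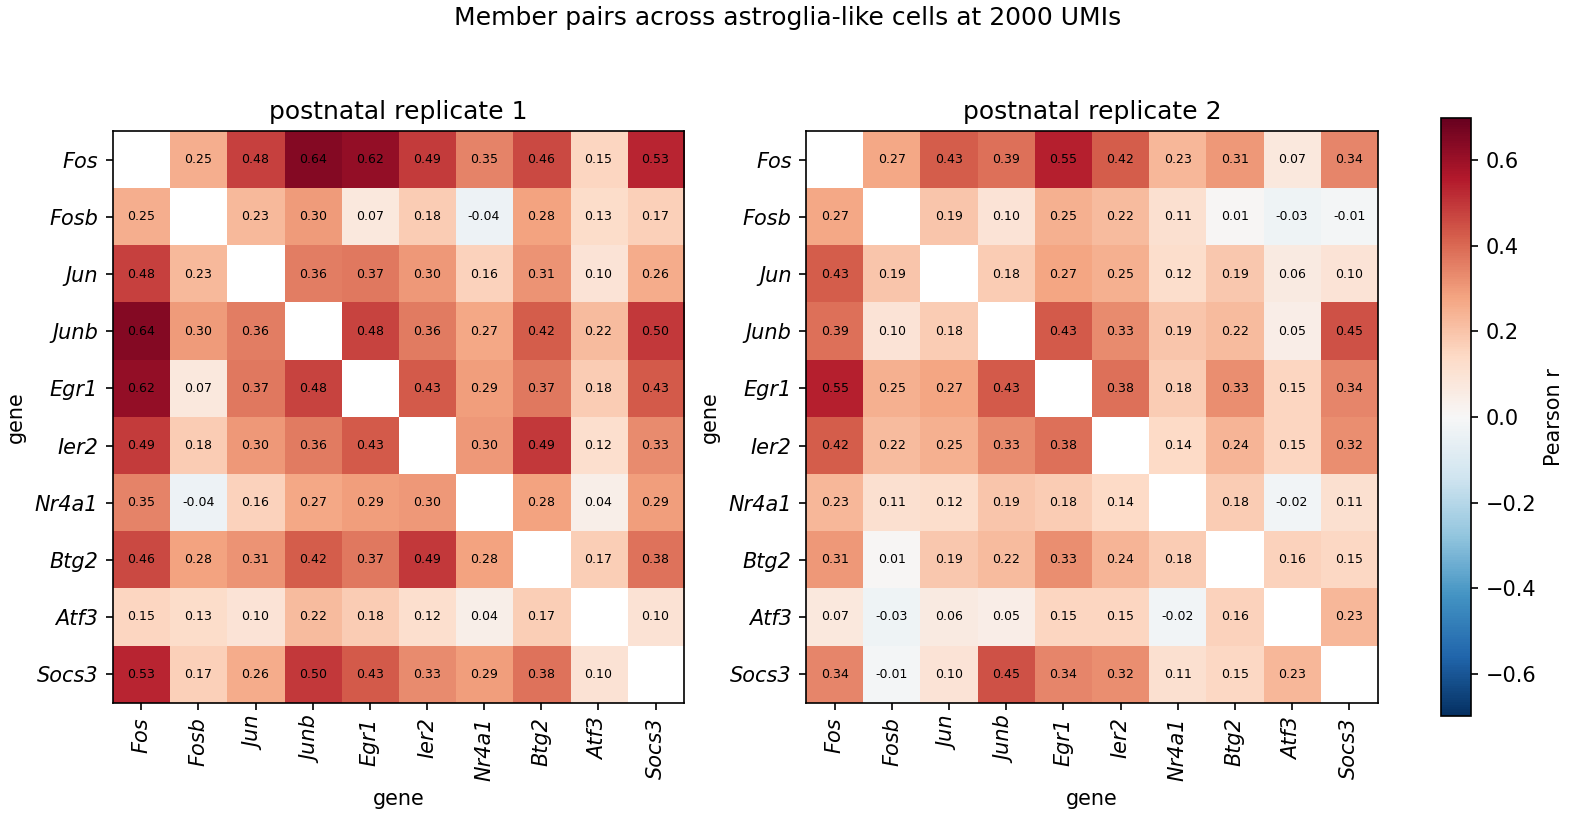
Pearson r of log counts for each pair of the 10 genes (both axes) across astroglia-like cells thinned to 2000 UMIs, in postnatal replicate 1 (324 cells, left) and postnatal replicate 2 (521 cells, right), with colour and printed value giving r. The row of Fos has the highest median r in both libraries, 0.48 and 0.34, and the rows of Atf3 and Fosb are pale.

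Genes outside the 10 whose counts were most like the summed members were sought among the 3698 genes found in at least 5% of the thinned astroglia-like cells of every library. Ranked by the lowest r over the 4 libraries, they were Jund, Id1, Ckb, Pabpc1, Wnt7b, Nlgn3, Actb, Hpf1, Mat2a and Rps27l. The lowest r was 0.13 for Jund, another AP-1 subunit, and 0.12 for Id1, and it was at most 0.09 for the other 8. In such sparse counts these weak values do not set the genes apart. The lowest r came from a 3m library for most of these genes, but from a postnatal library for Wnt7b, Mat2a and Rps27l. The ranking was repeated over the postnatal libraries alone, which was chosen after seeing the data. The leading genes were then Cyr61 (r = 0.46 and 0.35), Hes5 (0.49 and 0.33), Hes1 (0.50 and 0.31), Dusp1 (0.31 and 0.32) and Zfp36 (0.41 and 0.29). Hes1 and Hes5 encode repressors downstream of Notch, and Cyr61, Dusp1 and Zfp36 are themselves counted among immediate early genes.

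The start regions of the members carried some of the letters that the factors behind early transcription bind. The promoter table drawn from RefSeq (GRCm38.p6), with 250 bases before and 50 after each start, held 8 of the 10 members and not Egr1 or Ier2. The letters TGACG, the core shared by CREB and ATF sites, were looked for on both strands and found in the windows of 6 of the 8 members (Fos, Fosb, Junb, Nr4a1, Btg2 and Atf3), against 20.8% of all 32851 windows. The full palindrome TGACGTCA, which contains that core, stood in 1 of 8 (Btg2) against 1.79%. The STAT element TTCNNNGAA stood in 1 of 8 (Socs3) against 8.30%, TATAAA in 2 of 8 (Fos and Junb) against 13.6%, the AP-1 letters TGANTCA in 0 of 8 against 7.81% and the CArG box, bound by SRF, in 0 of 8 against 1.63%. A match is no more than a match of letters in this window, and the counts depend on the start used for each gene.

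The upstream bases of Fos, Junb and Btg2 are shown because they carry these letters beside 3 of the members described above. Each runs 5' to 3' on the strand of its gene and ends at the base before the RefSeq start, with the found letters in capitals. Fos lies at chr12:85473640-85473889 on the plus strand, Junb at chr8:84978749-84978998 and Btg2 at chr1:134079156-134079405, both on the minus strand. In Fos the TGACG cores begin 129 and 66 bases before the start and TATAAA begins 33 before it. In Junb the core begins 106 bases before the start, and its TATAAA lies after the start and is not shown. The gene annotation places the 5' end of Junb at chr8:84978718, downstream of that RefSeq start, so these positions depend on the start used. In Btg2 the palindrome runs from 166 to 159 bases before the RefSeq start. For Socs3 a stretch of 30 bases around its STAT element is given, at chr11:117969501-117969530 on the minus strand.
Fos: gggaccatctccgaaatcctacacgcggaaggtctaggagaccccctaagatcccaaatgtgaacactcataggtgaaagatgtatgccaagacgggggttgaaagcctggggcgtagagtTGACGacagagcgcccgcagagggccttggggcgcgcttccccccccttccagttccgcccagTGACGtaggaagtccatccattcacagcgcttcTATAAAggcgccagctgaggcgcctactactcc
Junb: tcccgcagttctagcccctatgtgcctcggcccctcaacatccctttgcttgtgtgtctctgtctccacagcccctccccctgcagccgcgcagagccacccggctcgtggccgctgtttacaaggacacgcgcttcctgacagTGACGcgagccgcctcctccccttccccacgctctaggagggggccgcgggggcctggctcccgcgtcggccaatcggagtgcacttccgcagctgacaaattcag
Btg2: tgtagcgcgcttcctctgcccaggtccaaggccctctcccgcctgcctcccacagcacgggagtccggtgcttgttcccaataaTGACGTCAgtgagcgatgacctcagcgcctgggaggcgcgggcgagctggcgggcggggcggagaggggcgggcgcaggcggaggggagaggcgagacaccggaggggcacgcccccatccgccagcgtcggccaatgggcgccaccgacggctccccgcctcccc
Socs3: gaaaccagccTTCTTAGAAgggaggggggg

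The remaining genes of these pathways were examined in 4 lists of 112 genes, of which 97 passed the filter on low counts. Counts were summed over the astroglia-like cells of each library and tested in edgeR by quasi-likelihood, which called 1405 of the 11846 genes (11.9%) lower at 3m and 1728 (14.6%) higher. Without a scaling factor, 2220 were lower and 1254 higher. Leaving out 3m replicate 1 or 2 gave 1457 or 1203 calls in all. The threshold for a call was 0.05 for the adjusted p (Benjamini-Hochberg) together with a log2 fold change of 1 in either direction. Fold changes below are fitted log2 values of 3m over postnatal, and their median over all genes tested was 0.00.

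Other immediate early genes were mostly lower at 3m. Of the 33 tested of 38 listed, 17 were called lower and 1 higher, against 11.9% and 14.6% of all genes tested. The median log2 fold change of the list was -1.40. Without 3m replicate 2 the lower calls numbered 8, and over all filtered cells the higher calls numbered 4. Jund was measured at 519 and 636 CPM postnatally and at 265 and 154 CPM at 3m (log2 fold change -1.18, adjusted p = 0.0187), though not called without 3m replicate 2 (-0.83). Cyr61, a secreted matricellular protein, fell, from 245 and 280.0 CPM to 32.5 and 28.3 CPM (log2 fold change -2.83, adjusted p = 0.000761). Zfp36l1, which binds AU-rich mRNA, had 348 and 269.6 CPM postnatally and 137 and 117 CPM at 3m (log2 fold change -1.01, adjusted p = 0.0110), a value at the threshold that lost its call under 5 alternatives. The fall was not common to the whole list. Tsc22d3, a glucocorticoid target, was called higher (log2 fold change 1.23, adjusted p = 0.0116), with 47.7 and 32.1 CPM postnatally and 85.4 and 67.4 CPM at 3m. This call was lost without a scaling factor (0.95) and without postnatal replicate 2 (0.92), 3m replicate 1 (1.05) or 3m replicate 2 (1.39). Rhob, a small GTPase, was the most abundant gene of the list without a call, at 214 and 183 CPM and at 165 and 135 CPM (log2 fold change -0.13, adjusted p = 0.609).

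The next list held upstream factors and kinases. Of 25 tested of 26 genes for SRF, CREB, AP-1 partners and MAP kinases, 5 were called lower (Srf, Elk3, Atf4, Batf3 and Mapkapk2) and 0 higher, with a median log2 fold change of -0.34. Over all genes tested 11.9% were called lower and 14.6% higher. The lower calls numbered 2 without either 3m library and 2 in cells with no cycling UMI, and over all filtered cells there were 3 lower and 3 higher. Elk3, a partner of SRF, had 48.9 and 45.8 CPM postnatally and 7.26 and 6.51 CPM at 3m (log2 fold change -2.50, adjusted p = 0.00129). Atf4, of the integrated stress response, had 128 and 106 CPM and 32.9 and 36.7 CPM (log2 fold change -1.46, adjusted p = 0.00282). Mapkapk2, a kinase downstream of p38, had 28.3 and 30.7 CPM and 11.1 and 12.2 CPM (log2 fold change -1.06, adjusted p = 0.0108), and its call was lost under 5 alternatives. These were leaving out 3m replicate 1 (-0.98) or 2 (-1.12), a limit of 5% mitochondrial UMIs (-0.69), cells with no cycling UMI (-0.99) and all filtered cells (-0.63). The kinase gene Map2k2 was not called (log2 fold change -0.34, adjusted p = 0.113), with values from 121 to 126 CPM postnatally and from 74.3 to 86.1 CPM at 3m.

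The JAK-STAT and SOCS genes around Socs3 went both ways. Of the 24 tested of 31 listed, 5 were called lower (Socs2, Cebpb, Cebpd, Ptpn11 and Gfap) and 3 higher, among them Socs5 and Cntfr. Over all genes tested 11.9% were lower and 14.6% higher, and the higher calls of the list were near that share. The median log2 fold change of the list was -0.12. Without 3m replicate 1 there were 2 lower and 2 higher calls, without 3m replicate 2 there was 1 of each, and over all filtered cells 5 were higher. Cntfr, the receptor chain for ciliary neurotrophic factor, rose from 102 and 96.9 CPM to 323 and 365 CPM (log2 fold change 2.07, adjusted p = 0.00112). Socs5 had 9.20 and 9.83 CPM postnatally and 19.6 and 21.8 CPM at 3m (log2 fold change 1.40, adjusted p = 0.00626). Gfap, a filament gene that STAT3 activates, had 465 and 86.2 CPM postnatally and 25.2 and 23.3 CPM at 3m (log2 fold change -3.24, adjusted p = 0.0204), so its postnatal libraries differed widely. The value for Gfap was -1.54 without postnatal replicate 1 and -4.02 without postnatal replicate 2, and its call was lost without 3m replicate 1 (-3.29) or 2 (-3.18). Cebpd fell (log2 fold change -1.44, adjusted p = 0.0188), but was not called without postnatal replicate 1 (-0.90) or without 3m replicate 1 (-1.58) or 2 (-1.30). Ptpn11 also fell (log2 fold change -1.11, adjusted p = 0.00452). Without 3m replicate 2 neither Ptpn11 (-0.99) nor Socs5 (1.33) was called. Jak1 was not called (log2 fold change 0.40, adjusted p = 0.110), at 124 and 102 CPM and at 117 and 129 CPM.

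Heat shock and unfolded protein genes were examined as another rapid response. Of the 15 tested of 17 listed, 2 were called lower (Hsp90ab1 and Hsph1) and 1 higher (Bag3), with a median log2 fold change of -0.47. Beside 11.9% lower and 14.6% higher over all genes tested, so few calls are not read as a trait of the list. Over all filtered cells the balance was the opposite, with 0 lower and 4 higher calls, and without a scaling factor it was 6 lower and 0 higher. The lower calls numbered 6 without postnatal replicate 1, 1 without 3m replicate 1 and 0 without 3m replicate 2, and the call of Bag3 was lost under 8 of the 15 alternatives, DESeq2 and the fit without a scaling factor among them. Hsp90ab1 had 1632 and 2061 CPM postnatally and 589 and 574 CPM at 3m (log2 fold change -1.38, adjusted p = 0.00514), but was not called without 3m replicate 1 (-1.39) or 2 (-1.36) or over all filtered cells (-0.16). Hsph1 had 48.4 and 48.3 CPM and 22.2 and 17.2 CPM (log2 fold change -1.02, adjusted p = 0.01003). The call of Hsph1 was lost without 3m replicate 2 (-0.83) and at a limit of 5% mitochondrial UMIs (-0.83), and its sign turned over all filtered cells (0.25). Bag3 had 12.8 and 8.67 CPM and 20.9 and 16.8 CPM (log2 fold change 1.12, adjusted p = 0.0294). Hspa8, at 1225 and 1362 CPM and at 822 and 713 CPM, was not called (log2 fold change -0.47, adjusted p = 0.106). The heat shock list thus had fewer calls than the list of other immediate early genes, a difference that was not tested.

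**Figure D4:**
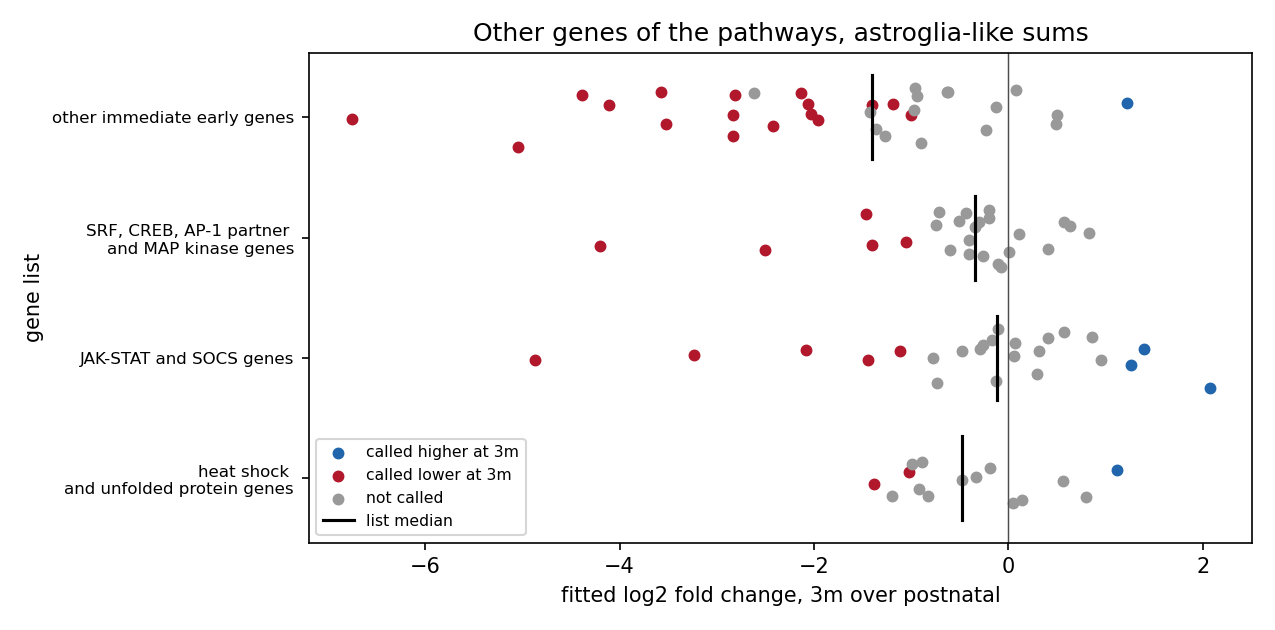
Fitted log2 fold change of 3m over postnatal (horizontal) in astroglia-like sums for each tested gene of the 4 lists (rows, points spread vertically for legibility), coloured by call, with a black bar at the list median. Most points of the other immediate early genes lie left of 0 with a median of -1.40, whereas those of the JAK-STAT and SOCS list lie around -0.12.

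Among the other classes only those with at least 20 cells in a library were used, so that an age difference could be followed in mural-like cells and, with 1 library of each age, in oligodendrocyte precursor-like cells. Mural-like cells were the only other class with enough cells in all 4 libraries (21, 33, 59 and 49 cells). Their summed level was 1701 and 1986 CPM postnatally and 1443 and 3867 CPM at 3m, so the groups overlapped. Of the 10 genes, 6 overlapped between the ages, Ier2 was lower at 3m in both libraries and Btg2, Atf3 and Socs3 were higher. Among the 8799 genes with at least 10 UMIs in mural-like cells, 27.1% were lower at 3m in both libraries and 23.2% were higher, so the members' shares of 1 and 3 of 10 are not read further.

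Very few mural-like cells carried most of the summed level at 3m, which was less so for Btg2. In 3m replicate 1, 2 of 59 cells held 168 of the 275 UMIs of the 10 genes, and in 3m replicate 2, 2 of 49 cells held 583 of 920. The 17 Atf3 UMIs of 3m replicate 1 lay in 1 cell, and the 61 of 3m replicate 2 lay in 3. Btg2 was spread over 21 cells in each 3m library. The same 2 cells of each library held 9 of its 32 UMIs in replicate 1 and 38 of its 84 in replicate 2. Btg2 was found in 35.6% and 42.9% of the mural-like cells at 3m and in 23.8% and 39.4% postnatally, at unlike depths. At 2000 UMIs it was found in 29.4% and 28.9% of 51 and 45 mural-like cells at 3m. Postnatally it was then found in 0% and 10.0% of 20 and 30 cells, though some of the exact intervals overlapped. The difference was not tested. The median share over mural-like cells was lower in both 3m libraries, whereas the sums overlapped. It was 0.0769% and 0.0713% postnatally and 0.0323% and 0.0208% at 3m. Mural-like cells were also deeper postnatally, with medians of 7476 and 10980.0 UMIs against 2988 and 4301. At 2000 UMIs, 85.0% and 70.0% of them held at least 1 UMI of the 10 genes postnatally, and 51.0% and 40.0% at 3m.

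Oligodendrocyte precursor-like cells allowed 1 library of each age, so no spread is known. The summed level was 1418 CPM in postnatal replicate 1 (65 cells, 95% exact Poisson interval 1328 to 1512) and 1680 CPM in 3m replicate 1 (44 cells, 1535 to 1834). These intervals cover counting error only and did not overlap. Fos was at 458 and 472 CPM, Jun at 343 and 732 CPM, and Egr1 at 257 and 67.5 CPM, so single members moved in both directions. The summed level of precursor-like cells was thus 1418 and 1680 CPM where that of astroglia-like cells of the same libraries was 5528 and 409.5 CPM. Within postnatal replicate 1 the astroglia-like cells were 3.90 times as high as the precursor-like cells, and within 3m replicate 1 the precursor-like cells were 4.10 times as high as the astroglia-like cells.

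In the 3m libraries the classes differed widely in level. Microglia-like cells of replicate 1 (24 cells) stood highest with 8313 CPM, with Jun at 2896, Junb at 1350.3, Fos at 1155 and Atf3 at 829.7 CPM, though 2 cells held 53.8% of their UMIs of the 10 genes. Endothelial-like cells had 2748 and 2510 CPM, led by Jun at 1080 and 874 CPM, Junb at 604 and 466 CPM and Ier2 at 439 and 327 CPM, while their Egr1 rested on 2 and 3 UMIs. In replicate 2, 2 of the 31 endothelial-like cells held 470 of 652 UMIs of the 10 genes, and the summed level after thinning to 2000 UMIs was 2256 and 1286 CPM in replicates 1 and 2. Endothelial-like and mural-like cells could not be ordered, since the 1443 and 3867 CPM of the latter spanned the former. Astroglia-like cells (409.5 and 137.4 CPM) and oligodendrocyte-like cells (163 and 195 CPM) were lowest and overlapped. In oligodendrocyte-like cells nearly all of this was Jun, at 144 and 178 CPM, and Fos was at 2.07 and 0.690 CPM.

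The order was different in the postnatal libraries, where astroglia-like cells were above mural-like cells of the same library by 3.25-fold in replicate 1 and 2.13-fold in replicate 2. The 10 genes had been chosen as leading postnatal astroglia-like cells, so this order is a description. In the 3m libraries mural-like cells were above astroglia-like cells by 3.52-fold and 28.1-fold. The difference between classes in the change with age was not tested.

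**Figure D5:**
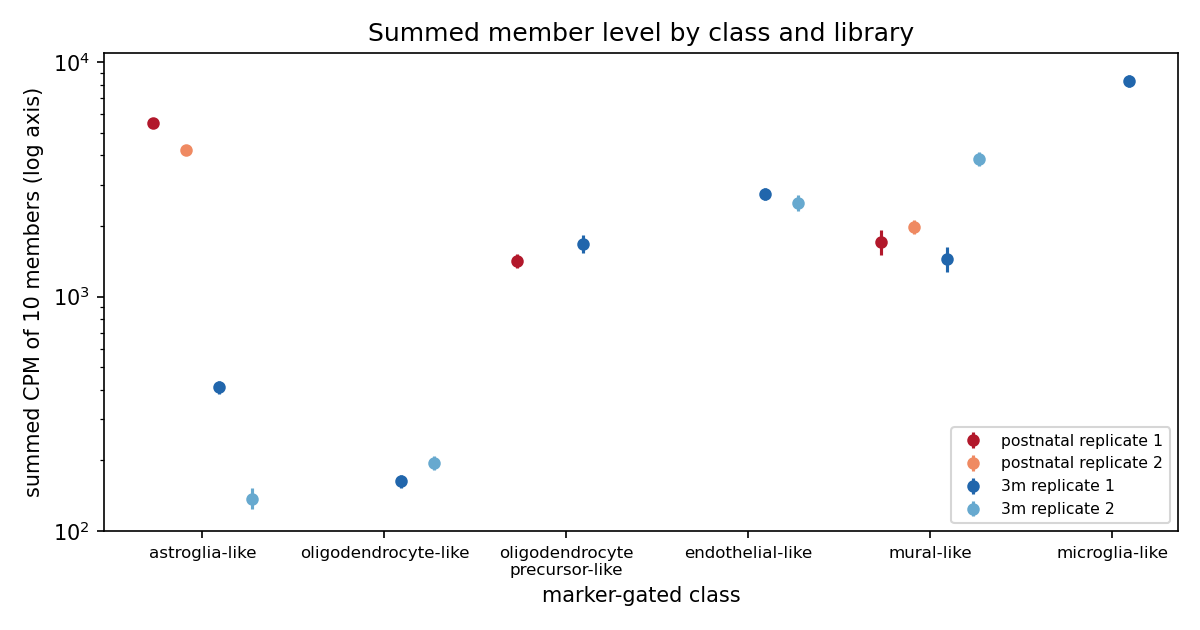
Summed level of the 10 genes in CPM (vertical, log axis) for each class with at least 20 cells in a library (horizontal), with 1 point per library and 95% exact Poisson intervals that cover counting error only. The postnatal and 3m points lie far apart in astroglia-like cells, at 5528 and 4220.0 against 409.5 and 137.4 CPM, and are mixed in mural-like cells.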

How the data were processed

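The values deposited by the authors are UMI counts of each gene in each barcode, with no normalisation, in 1 table of 31053 gene symbols and 4245 barcodes, in which the 12 runs in the labels were already merged into 4 libraries. Per the submitters' processing notes, Cell Ranger, Seurat 3.1.1 and mm10 were used. No column was left unused. The members and all gene lists were chosen with earlier results of these data known.

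Cells with over 10% mitochondrial UMIs or under 500 genes were removed, as were the smaller cells of shared barcodes, which left 3117 cells. A cell took the class with the highest mean log marker level (counts scaled to 10000 per cell) if that class led by at least 0.25 and at least 3 of its markers were detected, a scoring rule chosen after the data had been seen. No doublet caller was run. Astroglia-like cells numbered 1572.

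Counts of astroglia-like cells were summed per library and tested with edgeR 4.0.16 (quasi-likelihood, TMM, filterByExpr) with 0.05 as the limit for the adjusted p and 1 as the smallest size of a log2 fold change. DESeq2 1.42.0 was an alternative. Counts were also simulated for this comparison (11846 genes) with a common spread between libraries, a coefficient of variation of 0.185 for every gene. From these, edgeR recovered 95 of 100 genes changed by 2 log2 units and 86 of 100 changed by 1.5. It called 8 unchanged genes. Recovery at a wider spread, such as that of Gfap with 465 and 86.2 CPM in the postnatal libraries, was not tested. The study describes its preparations of each age as independent, each with pooled animals, and p-values measure the spread between the 2 libraries per age. Overlapping genes exist for Jun, Junb and Atf3 in the annotation, and how the authors' counting treated them is not given in the sources used here.

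All 10 members were named. From each list, the 3 called genes with the highest mean CPM in either direction and the most abundant uncalled gene were named, and the 10 genes most like the summed members, except for a gene that is not reported here. Intervals are 95% exact intervals, and a count of 0 was given a limit of 3 counts. Both cover counting error only.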

Additional observations from a re-analysis of the deposited data

Results flagged for a closer look

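Btg2, Atf3 and Socs3 moved in opposite directions with age in astroglia-like and mural-like cells, in every library of each class, and this difference was not tested. In mural-like cells 23.2% of the 8799 genes were higher in both 3m libraries, so 3 of 10 is near the share of all genes and is not read further. In mural-like cells Btg2 had 31.3 and 72.2 CPM postnatally and 168 and 353 CPM at 3m, with a 3m mean of 260.5 CPM. Atf3 had 12.5 CPM (2 UMIs) and 7.22 CPM (3 UMIs) postnatally and 89.2 and 256 CPM at 3m, with a 3m mean of 173 CPM, from 17 UMIs in 1 cell and 61 UMIs in 3 cells. Socs3 had 12.5 CPM (2 UMIs) and 16.8 CPM (7 UMIs) postnatally and 31.5 and 79.9 CPM at 3m, with a 3m mean of 55.7 CPM, from 6 and 19 UMIs.

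UMIs of the 10 genes were also found in barcodes outside the comparisons. Barcodes removed by the filters had a summed level of 1096 and 1085 CPM in postnatal replicates 1 and 2 and of 181 and 188 CPM in 3m replicates 1 and 2, at median depths of 710.0, 667, 1802 and 1426 UMIs. The 82 smaller cells of shared barcodes in 3m replicate 2 had 3292 CPM. Each shared its barcode with a larger cell of postnatal replicate 2, and over the 95 shared pairs the smaller cell held a median of 1.76% of the UMIs of the larger one, so this value is not read as a level of 3m cells.

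Classes with 5 to 19 cells in a library gave the following summed levels. Microglia-like cells had 17244 CPM in postnatal replicate 2 (16 cells, median depth 1453 UMIs) and 6866 CPM in 3m replicate 2 (7 cells). Endothelial-like cells had 1647 and 1799 CPM in postnatal replicates 1 and 2 (17 and 15 cells). Oligodendrocyte precursor-like cells had 1484 CPM in postnatal replicate 2 (6 cells) and 2886 CPM in 3m replicate 2 (7 cells). Oligodendrocyte-like cells of postnatal replicate 1 had 93.4 CPM (10 cells), and neuron-like cells of postnatal replicate 2 had 526 CPM (7 cells). Erythroid-like cells had 2430.2 and 2220.0 CPM in the postnatal libraries (7 and 9 cells), with median depths of 54581 and 64812 UMIs. Ependymal-like cells had 132 and 309 CPM in the 3m libraries (14 and 9 cells).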

How the results depend on the processing

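Each of the 10 genes stayed lower at 3m under every alternative that gave a value. The summed log2 ratio of 3m over postnatal, -4.16, was -2.97 over all filtered cells and lay within the spread between libraries under the other alternatives. The difference in the thinned share with at least 3 UMIs, -65.8 percentage points, was -69.0 at a limit of 5% mitochondrial UMIs, -33.5 for at least 10 UMIs and -42.8 at a depth of 1000 UMIs. Of the 10 genes most like the summed members, 0 were found again at 1000 UMIs and 2 over the postnatal libraries.

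Leaving out 1 library gave from 1203 to 3996 calls over all genes, against 3133, and from 12 to 41 in the 4 lists, against 34. Without 3m replicate 1 there were 1457 and 21 calls, and without 3m replicate 2 there were 1203 and 12. The 17 lower calls among the other immediate early genes became 8 without 3m replicate 2. Where 1 library was left alone in its group, it was assumed to vary like the other group. Without a scaling factor the median of all genes moved to -0.28, with 36.1% higher among the calls in place of 55.2%. The heat shock list then had 6 lower calls and 0 higher. Adjusted p alone gave 4672 calls. Same-numbered replicates share only a number in the labels, and a fit with the replicate block gave 3231 calls over all genes and 35 in the lists.

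Among the named list genes, the log2 fold change took the other sign over all filtered cells for Jund (0.61), Rhob (1.37), Map2k2 (0.000327), Ptpn11 (0.62), Jak1 (-0.0919) and Hsph1 (0.25), with calls lost there for Tsc22d3 (0.33), Mapkapk2 (-0.63), Bag3 (0.56) and Hsp90ab1 (-0.16), and the sign of Rhob also turned without 3m replicate 2 (0.0195). Atf4, Cntfr, Cyr61 and Elk3 were called under all 15 alternatives. Zfp36l1, with 5 lost calls, was at -0.995 under the replicate block.

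With 2 libraries per group, an undetected member at 3m is bounded only at about 1 CPM per library, and Egr1, Nr4a1 and Socs3 rest on under 10 UMIs in 3m replicate 2.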
